A study of Mus musculus and Homo sapiens with 10 samples.

Results

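The regions described here are 5077 wide binding sites of the upstream binding factor (UBF) that were found in tumorigenic HMLER cells and were missing from the UBF list of the HMEC line they derive from. They were selected on 2 measured values, so their width and their absence from HMEC are not findings. A region was kept if its HMLER peak was at least 1506 bp wide, the widest 25% of the 32274 HMLER peaks, and if no HMEC UBF peak overlapped it by 1 bp or more. Of the 8067 HMLER peaks of that width, 5077 (62.9%) met no HMEC peak and are called wide HMLER-only sites below. The other 2990 overlapped an HMEC peak and are called wide shared sites.

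The sites come from chromatin immunoprecipitation followed by sequencing (ChIP-seq), which lists the stretches of genome, or peaks, recovered with an antibody. HMEC are human mammary epithelial cells immortalized with the telomerase gene TERT. HMLER carries TERT as well, and in addition the SV40 large-T antigen and an oncogenic HRAS allele, written HRASV12G in the labels. Both lines were grown in the same ready-made epithelial medium and harvested while growing exponentially, and no drug or time course was applied. The sources used here do not say whether HMLER was 1 clone or a pool of cells. A rabbit antibody to UBF1/2 was used in both lines, and in HMEC antibodies to the largest subunit of RNA polymerase I (Pol I), POLR1A, were used too. No Pol I list of HMLER was analysed here, so every Pol I value below was measured in HMEC.

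UBF is a DNA-bending protein with several HMG boxes. It coats the ribosomal RNA genes in the nucleolus, keeps their chromatin accessible and helps the Pol I machinery to start and elongate. It is also known to bind outside the nucleolus, at genes read by RNA polymerase II. Signalling from RAS through ERK is known to phosphorylate UBF, and large-T is known to inactivate RB, a protein that can bind UBF. These facts are background, and none was measured here.

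Each antibody and line had 1 peak list, with positions and no score, height or read count. The depth behind a site is therefore unknown, and the lines could not be compared against a replicate error. A share is given with its exact binomial interval (Clopper-Pearson, 95%), and a difference of shares with its Newcombe interval (95%). Both cover counting error among peaks only, and neighbouring peaks are not independent. The 3 human lists held 32274 peaks (HMLER UBF, median width 982 bp), 9478 peaks (HMEC UBF, 469 bp) and 9294 peaks (HMEC Pol I, 290 bp). Only 144 HMEC UBF peaks were 1506 bp wide or more. A site missing from the shorter HMEC list is not shown to be unbound in HMEC. Positions are as the lists give them, in hg19, the human build in the submitters' processing notes, and genes at the sites were not analysed here.

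The wide HMLER-only sites covered 10.5 Mb and ranged from 1506 to 7425 bp, with a median of 1898 bp. The middle 50% lay between 1670 and 2278 bp. The wide shared sites had a median of 2152 bp and reached 12457 bp. The share of wide HMLER peaks without an HMEC peak is given by width only to describe the selection, since the rule used both values and a wider peak can meet another list's peak more easily. From 1506 to 1799 bp, 74.2% of 2732 HMLER peaks had no HMEC peak. From 1800 to 2199 bp the share was 64.1% of 2453, and from 2200 to 2999 bp it was 55.4% of 2029. At 3000 bp and above it was 41.3% of 853 (interval 37.9 to 44.6). At the threshold itself, 7 sites were exactly 1506 bp wide, the first of them on chromosomes 1, 8 and 12. Just outside it, 8 peaks without an HMEC peak were 1505 bp wide, the first of them on chromosomes 1, 1 and 3. Of those 3 outside, 1 overlapped a Pol I peak (174 bp of it), and none of the 3 inside did.

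The 10 widest of the sites lay on chromosomes 2, 5, 12, 15, 17, 19, 20 and X. The widest stood on chromosome 20, from 60939180 to 60946605 (7425 bp), with the nearest HMEC UBF peak 7.13 kb away and the nearest Pol I peak 9.55 kb away. The next, on chromosome 19 from 1465199 to 1471896 (6697 bp), was the only one of the 10 that overlapped a Pol I peak, over 323 bp. Chromosome 15 held 3 of the 10. These ran from 75742517 to 75749094 (6577 bp), from 69109056 to 69114628 (5572 bp) and from 70387012 to 70392422 (5410 bp), and their nearest HMEC UBF peaks were 121.8, 108.2 and 56.6 kb away. A site on chromosome 17, from 80195570 to 80201599 (6029 bp), stood 0.892 kb from another wide HMLER-only site. The remaining 4 were on chromosome 2 from 219260439 to 219265709, chromosome 5 from 137799074 to 137804301, chromosome 12 from 57479877 to 57485075 and chromosome X from 39953361 to 39958444, with widths of 5083 to 5270 bp. Over the 10 widest, the distance to HMEC UBF ran from 7.13 to 928.5 kb, with a median of 107.7 kb. This does not extend to wide sites in general: the median was 52.5 kb for all 5077, 50.1 kb for those of 2000 bp or more and 46.9 kb for the 352 of 3000 bp or more.

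The sites were spread unevenly over the chromosomes, and over the autosomes more unevenly than UBF in HMEC. All 5077 lay on chromosomes 1 to 22 and X. Per Mb of the range that the human peaks cover, chromosome 19, the human chromosome known for the densest genes, held 6.17 (364 sites, exact Poisson interval 5.55 to 6.83) and chromosome 17 held 5.74 (466 sites, 5.23 to 6.29). These intervals overlap. Chromosome 20 followed with 3.76 (236 sites), chromosome 22 with 3.11 (106) and chromosome 11 with 2.48 (334). Chromosomes 16 (2.43) and 1 (2.20) came close behind chromosome 11, within its interval of 2.22 to 2.76 for the first and just below it for the second. At the low end, chromosome 4 held 0.597 per Mb (114 sites, 0.493 to 0.718), chromosome 18 held 0.641 (50 sites) and chromosome X held 0.703 (109 sites), and these 3 did not differ beyond their intervals.

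Among the autosomes the density of the wide HMLER-only sites varied 10.3-fold. That of wide shared sites varied 4.01-fold and that of all HMEC UBF peaks 2.81-fold. With X included the order was another: wide shared sites varied 18.9-fold and HMEC UBF peaks 10.6-fold, both sparsest on X, and the wide HMLER-only sites still 10.3-fold. Chromosome 19 held 5.30 HMEC UBF peaks per Mb and chromosome 4 held 2.13. The whole HMLER list was uneven as well. It held 31.5 peaks per Mb on chromosome 19 and 4.45 on chromosome 4, its densest and sparsest autosomes. Over the 5 densest chromosomes, which make up 12.6% of the covered length, lay 1506 wide HMLER-only sites (29.7%, 28.4 to 30.9). The same chromosomes held 17.9% of wide shared sites (16.6 to 19.4), 17.6% of HMEC UBF peaks and 17.2% of HMEC Pol I peaks. They were picked for the density of the wide HMLER-only sites, so the difference of 11.7 points (9.85 to 13.6) from wide shared sites is a description. Narrower HMLER peaks without an HMEC peak stood between, with 24.0% (23.4 to 24.5) on these chromosomes, as did the whole HMLER list, with 24.0% (23.6 to 24.5). Among sites of 3000 bp or more the share was 39.5% (34.3 to 44.8), against 24.9% of wide shared sites of that width.

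The share of wide HMLER peaks without an HMEC peak is the rule's own outcome, and by chromosome it describes where the selection fell. It was 80.4% of 453 on chromosome 19 (76.4 to 83.9), 75.7% of 140 on chromosome 22, 74.4% of 317 on chromosome 20 and 71.3% of 654 on chromosome 17. On chromosome 4 it was 49.4% of 231 (42.7 to 56.0), on chromosome 10 it was 52.4% of 374, and on chromosomes 2 and 3 it was 52.7% of 387 and of 474. The median over the chromosomes was 61.6%. Chromosome X stood apart from this order: it was among the sparsest chromosomes for wide HMLER-only sites but had the highest share, 85.2% of 128 (77.8 to 90.8). On X the HMEC UBF list held 0.561 peaks per Mb, against 2.12 to 5.94 on the autosomes, while the HMEC Pol I list held 1.88 there. The part that the sparse HMEC UBF list on X had in this share was not tested.

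**Figure D1:**
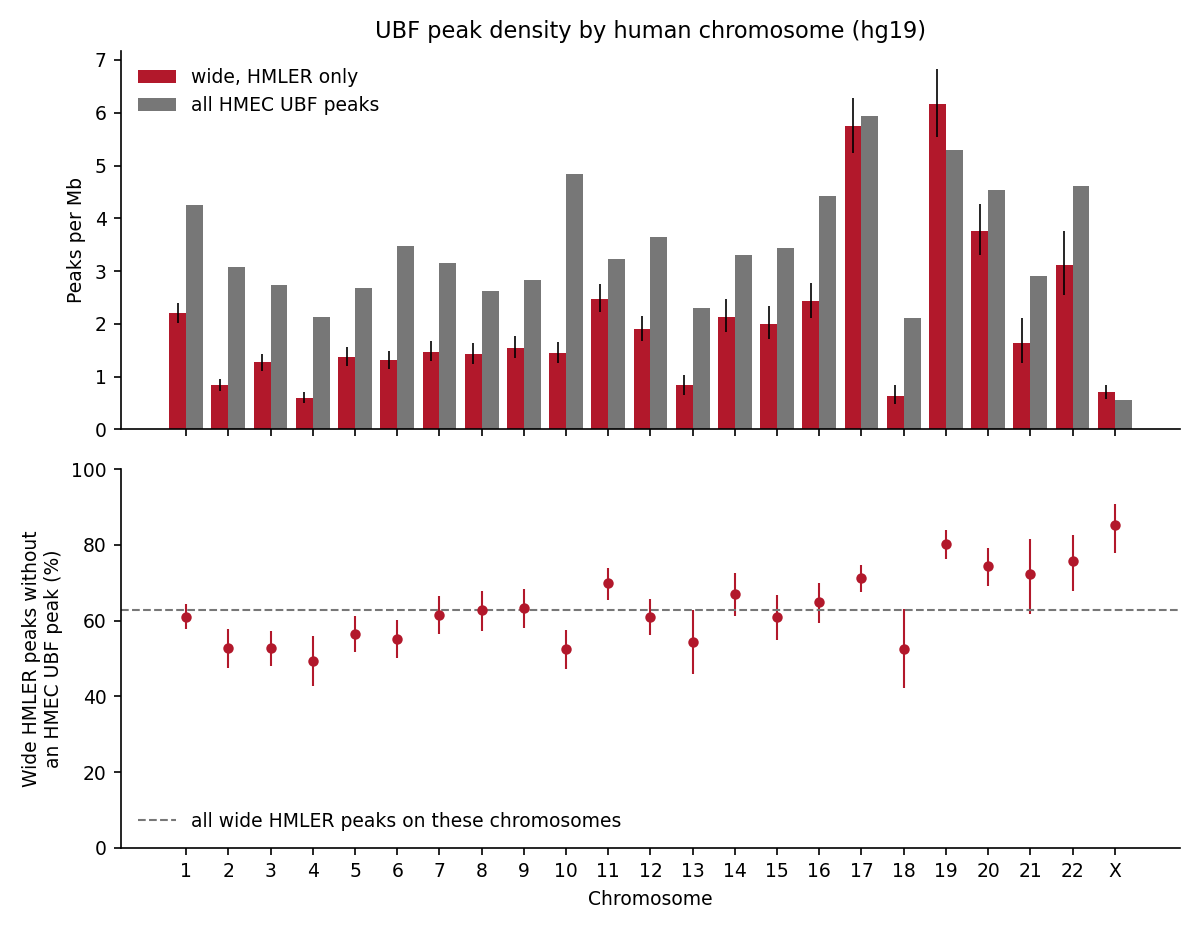
The upper panel shows UBF peaks per Mb on chromosomes 1 to 22 and X, in red for the wide HMLER-only sites (lines are 95% Poisson intervals) and in grey for all HMEC UBF peaks; the lower panel shows the share of wide HMLER peaks without an HMEC UBF peak, with 95% exact intervals and a dashed line at 62.9%. Chromosomes 17 and 19 stand highest in the upper panel, and in the lower panel chromosome 19 (80.4%) and chromosome X (85.2%) stand highest and chromosome 4 (49.4%) lowest.

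The sites also lay near chromosome ends more often than wide shared sites did. The end 5 Mb were taken at 41 ends (both ends of each chromosome, and only the long-arm end for chromosomes 13, 14, 15, 21 and 22). These ends make up 6.96% of the covered length and held 14.0% of the HMLER list. Of the wide HMLER-only sites 875 (17.2%, 16.2 to 18.3) lay there, against 12.2% of wide shared sites (11.0 to 13.4), 13.7% of narrower HMLER-only peaks and 16.6% of the HMEC UBF list. The wide HMLER-only sites exceeded the wide shared ones by 5.06 points (3.47 to 6.61). With wide shared sites weighted to the same chromosomes, the difference was 2.67 points (normal 95% interval 0.909 to 4.42). Ends of 2 Mb held 9.57% of the sites and 5.69% of wide shared ones. The interval of the HMEC UBF list, 15.8 to 17.3, overlaps that of the sites.

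Some of the sites stood in clusters. In fixed windows of 100 kb, 2926 sites (57.6%) were alone, and the other 2151 (42.4%) shared 855 windows. No such count is given here for the other HMLER peaks. The windows therefore do not show that the sites cluster more than HMLER peaks in general. Windows with 5 or more sites numbered 35 and held 191 sites. With the windows shifted by 50 kb, the fullest held 9 sites. As placed here, the fullest held 7, and there were 6 such windows. They were on chromosome 11 from 800001 and from 64000001, on chromosome 5 from 139000001, on chromosome 19 from 1200001, and on chromosome 17 from 7100001 and from 8000001. The 6 windows differed in how much HMEC UBF they held. The windows on chromosome 11 from 800001 and on chromosome 17 from 7100001 held 13 HMLER UBF peaks each, with no wide shared site and no HMEC UBF peak. The windows, and the runs below, were picked for sites that by the rule overlap no HMEC UBF peak. The HMEC UBF list is also sparse, at 3.22 peaks per Mb over the chromosomes, so its absence from a window or run is a description. The window on chromosome 19 held 20 HMLER peaks and 5 HMEC UBF peaks, and that on chromosome 17 from 8000001 held 15 and 4. The window on chromosome 5 held 13 and 2, and that on chromosome 11 from 64000001 held 20 and 3. HMEC Pol I peaks numbered 0 to 3 in each of the 6 windows, and 2 of their 42 sites overlapped one. The other 4 of the 10 fullest, with 6 sites each, lay on chromosome 20 from 60900001, chromosome 19 from 42700001, chromosome 11 from 62300001 and chromosome 17 from 46600001.

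**Figure D2:**
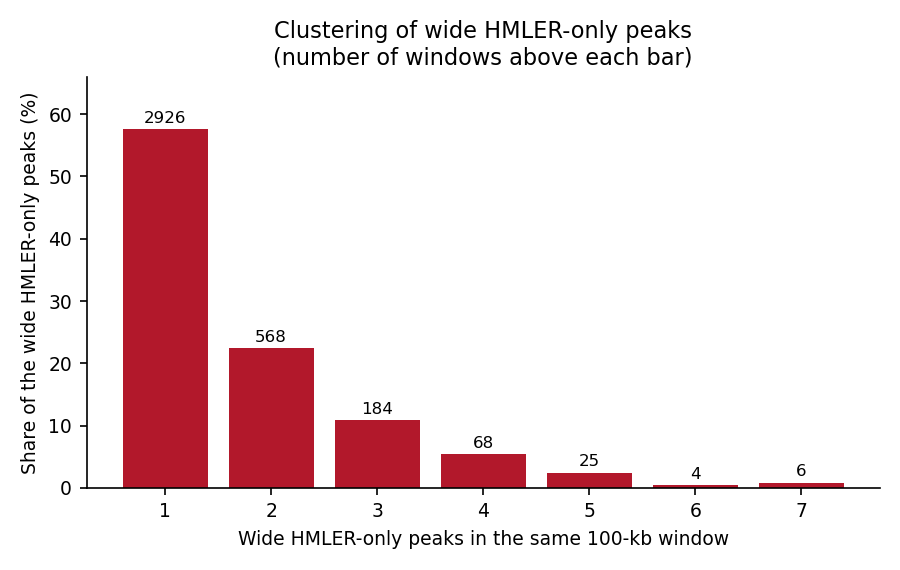
Bars show the share of the 5077 wide HMLER-only sites that lie in 100-kb windows holding 1 to 7 of them, and the numbers above the bars count the windows. Single sites make up 57.6%, and the 6 fullest windows hold 7 sites each.

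Joined across gaps of 10 kb or less, 785 sites (15.5%, 14.5 to 16.5) fell into 341 runs of at least 2, and 70 runs held 3 or more. The longest run held 8 sites on chromosome 11 from 795693 to 845450. This run takes in all 7 sites of the chromosome 11 window from 800001, so the 2 are 1 place. Its sites covered 20110 bp, or 40.4% of 49.8 kb, and the run held 13 HMLER UBF peaks in all, no HMEC UBF peak and 1 Pol I peak. On chromosome 17, from 80169739 to 80205722, a run of 6 sites covered 51.5% of 36.0 kb, with no HMEC UBF and no Pol I peak inside it. The run around the widest site, on chromosome 20 from 60924868 to 60963303, held 6 sites, 2 HMEC UBF peaks and 2 Pol I peaks. Of the 3 runs of 5, the longest lay on chromosome 5 from 139016597 to 139051700 and on chromosome 11 from 65244262 to 65276182, with 1 and 2 HMEC UBF peaks. Wide shared sites had another wide shared site within 10 kb less often, at 6.56%, but that set is smaller, which lowers this share. Measured against the whole HMLER list, 51.6% of the wide HMLER-only sites (50.3 to 53.0) had another HMLER UBF peak of any width within 10 kb. That is the level of the list as a whole, 51.7%, and 6.26 points (4.00 to 8.51) above the 45.4% of wide shared sites.

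Pol I in HMEC was present at a minority of the sites. Of the 5077, 286 (5.63%, 5.02 to 6.30) overlapped an HMEC Pol I peak, against 3.47% of the whole HMLER list. The peaks of that list were narrower, with a median of 982 bp against 1898 bp, and a wider peak can meet a Pol I peak more easily. Wide shared sites had Pol I at 7.83% (6.89 to 8.85), and the difference, as HMLER-only minus shared, was -2.19 points (-3.38 to -1.06). The wide shared sites were wider, however. Weighted in 4 width groups to the widths of the HMLER-only sites, they had 6.68%. The difference was then -1.05 points with a normal 95% interval from -2.17 to 0.0765, which includes 0. Widths inside a group can still differ. Narrower HMLER peaks without an HMEC peak had Pol I at 2.26% (2.07 to 2.46), and narrower shared ones at 5.36% (4.35 to 6.52). Per Mb of peak sequence the order was different. The wide HMLER-only sites held 28.5 Pol I peaks per 1000 kb, the narrower HMLER-only peaks 27.9 and the whole HMLER list 30.4. A Pol I peak that only crosses an edge counts in full, which raises this rate more for narrower peaks. The closeness of these rates therefore does not show equal Pol I, and rates by peak centre are given below. Wide shared sites held 34.5 per 1000 kb and narrower shared peaks 50.2 on the same scale.

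Within the wide HMLER-only sites the share with Pol I was highest in the widest group, whose interval overlaps that of the group before it. It was 5.03% from 1506 to 1799 bp, 5.34% from 1800 to 2199 bp, 5.87% (4.57 to 7.40) from 2200 to 2999 bp and 9.66% (6.78 to 13.2) at 3000 bp and above. Per 1000 kb of sequence these groups held 32.2, 27.7, 25.3 and 27.8 Pol I peaks, with the highest rate in the least wide group. Pol I peaks that cross an edge raise the rate of that group most. For wide shared sites the shares were 5.11%, 6.36%, 7.30% and 15.2% (12.1 to 18.6), and the rates 31.8, 32.6, 30.9 and 41.8 per 1000 kb, with the highest in the widest group. The difference between the sets, as HMLER-only minus shared, excluded 0 only in the widest group, at -5.51 points (-9.84 to -0.953). It was -0.0743, -1.02 and -1.43 points in the others, with intervals from -2.15 to 1.67, from -3.09 to 0.859 and from -3.68 to 0.723. Widths were not matched inside a group. The widest group has no upper limit, and in it shared sites reached 12457 bp and HMLER-only sites 7425 bp.

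**Figure D3:**
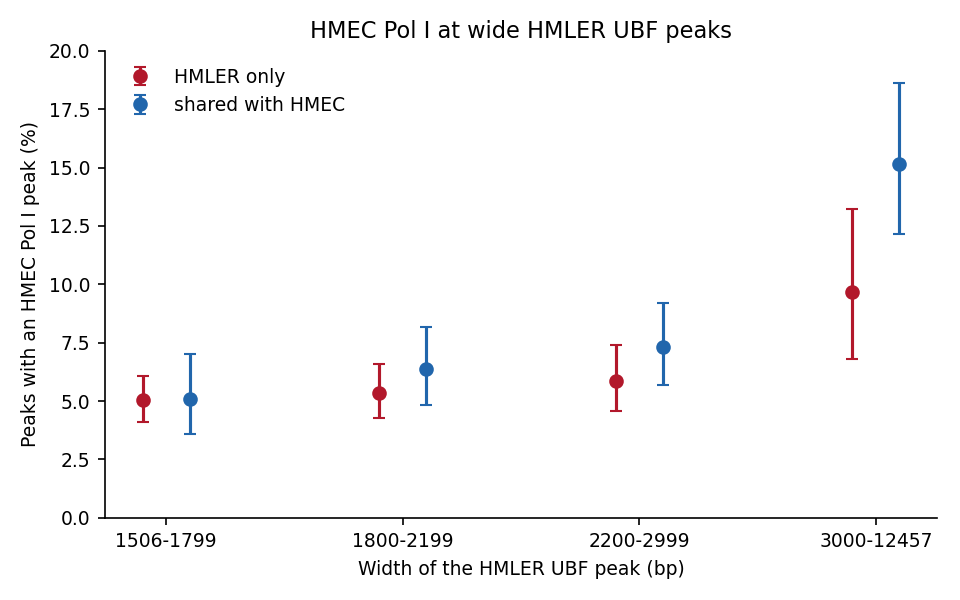
Points show the share of wide HMLER UBF peaks that overlap an HMEC Pol I peak in 4 groups of peak width, in red without and in blue with an overlapping HMEC UBF peak, and bars are 95% exact binomial intervals. The sets lie together at 5.03% and 5.11% in the least wide group and stand at 9.66% and 15.2% in the widest.

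Pol I was raised at the sites themselves and not only around them. Within 1 kb of the centre of the wide HMLER-only sites, HMEC Pol I peak centres occurred at 25.3 per Mb scanned (257 centres, Poisson interval 22.3 to 28.6). From 5 to 10 kb away they occurred at 7.43 per Mb (6.70 to 8.21), a ratio of 3.41. The mean over the chromosomes was 3.16 per Mb, so the surroundings also stood above it. Wide shared sites gave 31.4 per Mb within 1 kb (27.1 to 36.3), an interval that overlaps that of the HMLER-only sites, and 7.26 from 5 to 10 kb. Narrower HMLER-only peaks gave 16.4 (15.3 to 17.6) and 7.09. For HMEC UBF the rule leaves no peak inside a site, so only the surroundings can be read. From 2 to 5 kb of the centre the 2 HMEC lists were equal, with 284 peak centres each, or 9.32 per Mb (8.27 to 10.5). From 5 to 10 kb HMEC UBF stood at 9.42 (8.59 to 10.3), against the 7.43 of Pol I. Both UBF values lie above the 3.22 per Mb of the HMEC UBF list over the chromosomes. Around narrower HMLER-only peaks HMEC UBF stood at 11.8 per Mb (11.2 to 12.4) from 2 to 5 kb and at 9.42 (9.02 to 9.83) from 5 to 10 kb. Around wide shared sites it stood at 12.7 (11.1 to 14.5) and 11.2 (10.1 to 12.5), with overlapping HMEC peaks not left out. What the regions share besides UBF, such as genes, accessible chromatin or repeats, was not measured, and its part in these rates was not tested.

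**Figure D4:**
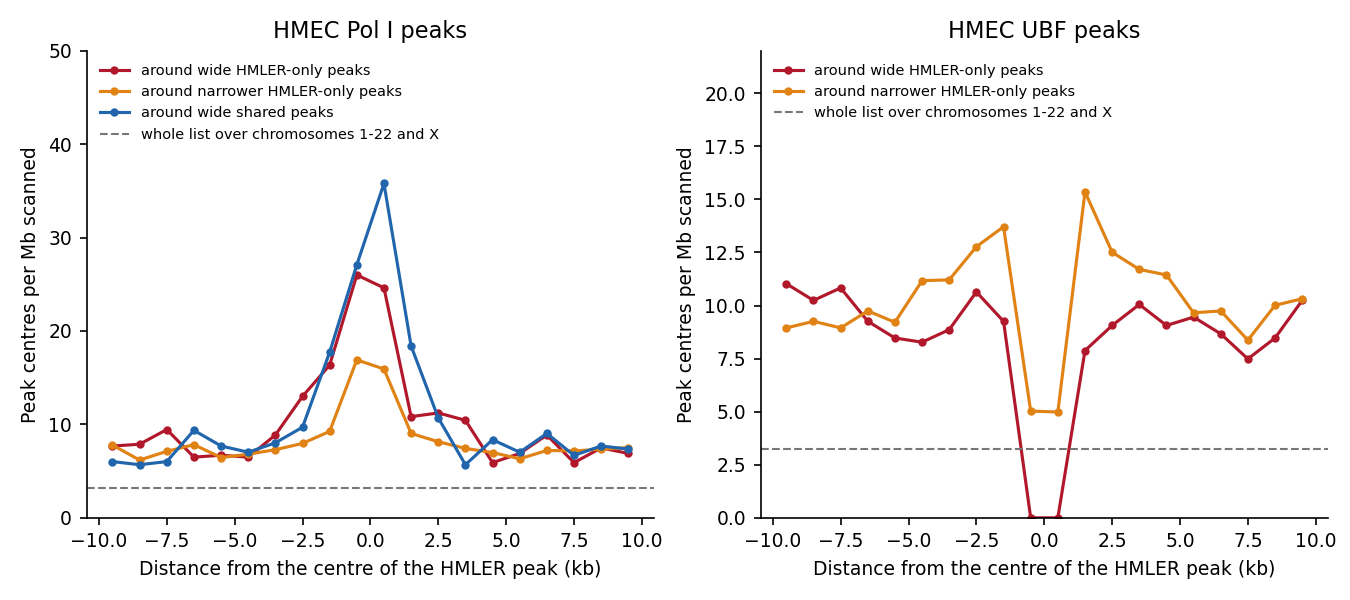
Lines show the number of HMEC peak centres per Mb scanned in 1-kb bins from -10 to 10 kb of the centre of HMLER UBF peaks, on the left for Pol I and on the right for UBF; red is around wide HMLER-only sites, orange around narrower HMLER-only peaks, blue (left) around wide shared sites, and the dashed line is the mean over the chromosomes. Pol I rises to 26.0 and 24.6 per Mb in the central bins around wide HMLER-only sites, while HMEC UBF is at 0 there by the rule and flat outside.

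Of the 9294 HMEC Pol I peaks, 1153 (12.4%) overlapped an HMLER UBF peak, and 299 (3.22%) overlapped a wide HMLER-only site. Most lay fully inside the site (241), where the rule leaves no HMEC UBF peak, and none of the 299 touched one. Their median width was 300 bp against 290 bp for the whole Pol I list. By site, 274 had 1 Pol I peak, 11 had 2 and 1 had 3. The centres of 136 of the 299 (45.5%, 39.7 to 51.3) fell in the inner 50% of the site's width. A Pol I peak that crosses the edge of a site can have its centre outside it, so even placement would not give 50%. A Pol I peak stood within 10 kb of 990 sites (19.5%, 18.4 to 20.6), against 16.6% of the HMLER list and 20.5% of wide shared sites (19.07 to 21.99). Sites in runs had Pol I at 7.01% (5.32 to 9.02) and sites outside runs at 5.38% (4.73 to 6.10), with overlapping intervals. By chromosome the highest share was 9.15% of 164 sites on chromosome 15 (5.21 to 14.6), followed by 8.15% of 466 on chromosome 17 (5.83 to 11.0). On chromosome 19 it was 3.85% of 364 (2.12 to 6.37), and on X 1 of 109 sites had Pol I (0.917%, 0.0232 to 5.01).

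At 3 sites Pol I covered most of the UBF peak, and these 3 differ from the rest. The first was on chromosome 21 from 9825446 to 9827917, where 1 Pol I peak from 9825421 to 9827815 covered 95.9% of the site. It was also the site farthest from any HMEC UBF peak, at 6.61 Mb, and its nearest wide HMLER-only neighbour was 7274 kb away. The others stood near the start of chromosome 1. The site from 564453 to 566754 was covered by Pol I over 89.2% of its length, by 2 Pol I peaks of 1620 and 780 bp. The site from 568672 to 570318 met 3 Pol I peaks and was covered over 58.1%. As background that was not matched to an annotation here, hg19 is known to hold sequence like the ribosomal RNA genes on the short arm of chromosome 21, and a nuclear copy of mitochondrial DNA near the start of chromosome 1. Reads from repeated sequence are hard to place at 1 position, and the part of this in the 3 sites was not tested. Without them 283 of the sites had Pol I (5.58%).

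The next 7 sites by Pol I coverage had 575 to 663 bp of Pol I each, on chromosomes 6, 10 and 12. The first was on chromosome 6 from 3063602 to 3065167, with 42.4% covered by 2 Pol I peaks and an HMEC UBF peak 2.34 kb away. On chromosome 12, the site from 22696312 to 22698112 was covered over 35.4%, with the nearest HMEC UBF peak 80.0 kb away. Chromosome 6 held 2 more, from 46701660 to 46703862 and from 3231043 to 3232635, with 28.0% and 37.9% covered. The others lay on chromosome 10 from 135070870 to 135073587 and on chromosome 12 from 6960235 to 6962568 and from 125001713 to 125004140, and Pol I covered 22.1% to 24.7% of them.

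In the median, the sites lay about as far from the nearest UBF peak of HMEC as HMLER peaks in general. The median distance, edge to edge, was 52.5 kb, and the middle 50% lay between 18.9 and 127.6 kb. The median was 52.7 kb for the whole HMLER list when overlapping HMEC peaks are left out, and 51.8 kb for narrower HMLER-only peaks. Within 1 kb of an HMEC UBF peak were 116 sites (2.28%, 1.89 to 2.73), against 2.97% of the HMLER list when overlapping HMEC peaks are left out. Within 10 kb were 754 (14.9%, 13.9 to 15.9), against 16.5% of that list. Within 100 kb were 3500 (68.9%) and within 1 Mb 4998 (98.4%), close to the 67.6% and 98.05% of that list. Wide shared sites, measured to the nearest HMEC peak that did not overlap them, had a median of 59.8 kb and 15.5% within 10 kb (14.2 to 16.8). The difference from the HMLER-only sites at 10 kb was -0.600 points, with an interval from -2.24 to 1.004 that includes 0. At 1 kb it was -0.759 points (-1.54 to -0.0427). Narrower HMLER-only peaks had 16.9% within 10 kb, and the HMLER-only minus narrower difference was -2.08 points (-3.16 to -0.966). The rule set these groups apart by HMEC UBF positions and by width, the values that these distances rest on. The differences are therefore descriptions, whether or not their intervals include 0.

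Few of the sites missed an HMEC peak by a small gap. There were 15 within 100 bp (0.296%) and 60 within 500 bp (1.18%). The whole HMLER list had 0.322% and 1.54% when overlapping HMEC peaks are left out, so such gaps were rare there too. The smallest gap of the sites was 12 bp, so none depends on whether positions are counted from 0 or 1. The nearest was on chromosome 1 from 44439732 to 44441446, with an HMEC peak from 44441458 to 44441974. On chromosome 19 the site from 16180331 to 16181869 stood 13 bp from an HMEC peak that starts at 16179203. The next 3, on chromosome 7 from 129464309 to 129466318 and on chromosome 11 from 65255016 to 65257297 and from 64066258 to 64069216, stood 15, 18 and 26 bp away. None of these 5 overlapped Pol I. The neighbouring HMEC peaks were 349 to 1115 bp wide.

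The farthest sites after that on chromosome 21 were on chromosome X from 123093311 to 123096257 (4.38 Mb) and from 57935669 to 57937267 (3.86 Mb), and on chromosome 2 from 91786016 to 91788479 and from 91847124 to 91848635 (3.86 and 3.85 Mb). None of these 4 overlapped Pol I. The median distance also differed between chromosomes, from 34.9 kb on chromosome 19 and 38.6 kb on chromosome 17 to 135.2 kb on chromosome 18 and 378.3 kb on X, where HMEC UBF peaks were sparsest. Sites in runs were nearer to HMEC UBF, with a median of 30.0 kb, than sites outside runs, with 57.8 kb. The 2 groups were not matched by chromosome, and the part of the chromosomes in this was not tested.

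**Figure D5:**
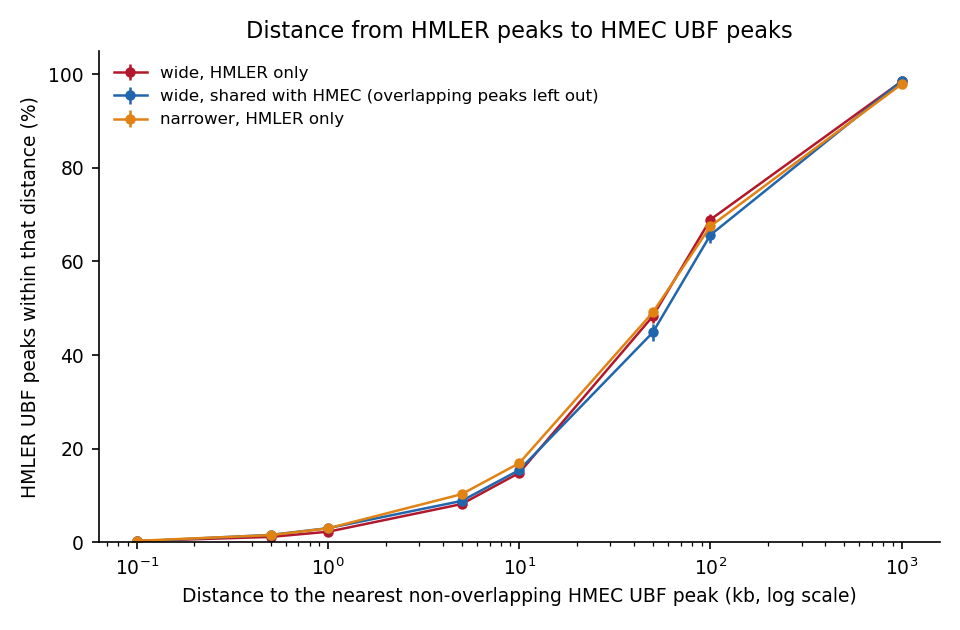
Lines show the share of HMLER UBF peaks whose nearest non-overlapping HMEC UBF peak lies within a given distance (0.1 to 1000 kb, log axis), for wide HMLER-only sites (red), wide shared sites (blue) and narrower HMLER-only peaks (orange), with 95% exact intervals. The 3 lines run close together, and at 10 kb they stand at 14.9%, 15.5% and 16.9%.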

How the data were processed

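The authors deposited 1 list of peaks per antibody and line, 3 columns with chromosome, start and end, and no score, count or fold per peak. The submitters' processing notes list CASAVA 1.8.2, BWA and Picard, and hg19 as the only human build, without giving their roles. No source used here names the caller of the peaks or its cut-off. The 3 human lists were used, and the 7 mouse lists were not.

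Lines were split at carriage returns, and contigs were matched by their GL number. Overlaps (1 bp or more), edge-to-edge distances, 100-kb windows by peak centre and runs (gaps of 10 kb or less) were computed with Python 3.11.15, numpy 2.4.6, pandas 2.3.3 and scipy 1.17.1. Chromosome length was the range from the first to the last human peak. The overlap and distance steps were checked on simulated peaks. Alternatives were other width minimums, overlap rules, list cuts, distances and windows.

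Regions and their settings were chosen with earlier results of these data known. Regions named singly follow a rule: the 10 widest, the 10 with most Pol I, the 5 nearest to and 5 farthest from HMEC UBF, the 10 fullest windows, the 5 longest runs and 3 on each side of the width threshold. No sequence is printed, since no hg19 genome was used here.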

Additional observations from a re-analysis of the deposited data

How the results depend on the processing

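No paired analysis was possible because each antibody and line has 1 list. Of 57 alternatives, 24 stayed within the interval of the value (or within 1.5 times a count), 33 moved it and 0 turned its direction. Only a difference of shares could turn direction, that of Pol I (10 alternatives) or that of chromosome ends (1). Leaving out contigs and chromosome Y could change nothing, as no wide HMLER peak lay there. With minimum widths of 1000, 2000 and 3000 bp in turn, the sites numbered 11656, 2113 and 352. Their share with Pol I was 4.52%, 6.15% and 9.66%, and its difference from wide shared sites was -2.66, -3.21 and -5.51 points. Their median distance to HMEC UBF was 53.1, 50.1 and 46.9 kb, with 15.3%, 16.0% and 20.2% within 10 kb. Another site stood within 10 kb of 28.8%, 8.99% and 3.41%. The densest chromosome held 14.3, 2.82 and 0.593 sites per Mb, and it was chromosome 19, 17 and 19. The 5 densest chromosomes held 28.0%, 32.0% and 39.5% of the sites. With a Pol I peak within 1000 bp the share was 7.72%, and with the wider 50% of the Pol I list it was 3.29%. The difference weighted to the sites' widths was -1.05 points, and its interval includes 0. With the wider 50% of the HMEC UBF list the median distance was 109.3 kb and 7.56% lay within 10 kb. Centre to centre, 13.2% did. Windows of 500 kb held up to 21 sites, and windows of 100 kb shifted by 50 kb up to 9. Linking distances of 5, 50 and 100 kb gave 9.30%, 43.3% and 60.2% of sites with a neighbour, and requiring no HMEC UBF peak within 5000 bp gave 14.1%. Ends of 2 and 10 Mb held 9.57% and 26.3% of sites, and the difference weighted to the sites' chromosomes was 2.67 points. The weightings, the 5 chromosomes, the ends and the Pol I share without 3 sites were added after the data were seen. Other minimums, list cuts, distances and windows change by construction how many peaks can count. Beyond that, the cause was not tested. Depth is unknown, and what it limits was not tested.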
